A study of Rattus norvegicus with 6 samples.

Results

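The genes of the microtubule cytoskeleton were compared between the cells that wrap rat cortical arterioles and those that wrap mid-capillaries. Members were chosen by gene symbol: the alpha, beta and gamma tubulins, the gamma-tubulin complex proteins, the stathmins, doublecortin and its kinases, the collapsin response mediator proteins (CRMPs), the microtubule-associated proteins (MAPs) with their MAP7 and LC3 relatives, the end-binding proteins and Nrep. They fill 49 of the 14607 gene rows of the data, with 48 distinct symbols since Mapre2 has 2 rows. Other genes of these families, such as Stmn2 and Stmn3, were not analysed here.

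Messenger RNA was sequenced from 3 samples of vascular smooth muscle cells (VSMCs) and 3 of mid-capillary pericytes (mcPCs), freshly isolated from the cortex of male Sprague-Dawley rats aged 4 to 5 weeks. There were 3 isolations, each from the pooled cortices of 10 rats. VSMCs were taken from arteriole fragments held back by a filter, dissociated, cleared of CD31 and CD11b positive cells and then retained by the lectin GSA. The mcPCs were what remained of the filtrate after cells bearing CD31, CD11b, GLAST or O4 had been removed, so that this fraction was never selected by a marker of its own, and no antibody against neurons, lymphocytes or erythrocytes was used.

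For each gene the values used are the mean of each cell type, with no value per sample. No spread between isolations was computed from them and no test was run, and the standard errors and p-values of the comparison made by the authors were left aside. The only error shown is a 95% counting interval, which covers the sampling of reads and not the variation between isolations. The reads assigned to genes came to 61978061 per VSMC sample and 47990230 per mcPC sample. Levels are given as TPM, the abundance of a transcript per unit of its length on a scale with the same total in every sample, which can be compared between genes. Differences between cell types are log2 ratios of mean normalized counts, mcPCs over VSMCs, with 1 count added to each mean, and a gene was counted as higher in a cell type from 2-fold. In RNA from sorted bulk samples, fewer cells of a type and less RNA per cell cannot be told apart.

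Microtubules are hollow polymers of alpha-beta tubulin dimers that grow from gamma-tubulin ring complexes, and cells choose among several alpha and beta isotypes. Stathmins hold free tubulin back, whereas doublecortin, tau and the other MAPs bind and stabilize the polymer, and end-binding proteins gather on its growing tips. In the nervous system Tubb3, Dcx and Map2 are standard markers of young or mature neurons, while in arterial smooth muscle microtubules carry vesicles and channels and influence the contractile response.

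The promoters of the beta tubulins with the highest mcPC to VSMC ratios and of the alpha tubulin with the lowest are shown first, because these 3 genes have the most extreme ratios among the tubulins. Each is the stretch of 250 bases upstream of a transcription start annotated by RefSeq on the GRCr8 assembly, a later assembly than the Rnor_6.0 to which the reads were assigned. Tubb3 (ENSRNOG00000017209 in the data) lies at chr19:68365437-68365686, Tubb2b (ENSRNOG00000017445) at chr17:30952836-30953085 and Tuba1c (ENSRNOG00000021438) at chr7:132070734-132070983, all on the plus strand. Capitals mark matches on either strand to the GC box (GGGCGG) or the CCAAT box (CCAAT).
Tubb3: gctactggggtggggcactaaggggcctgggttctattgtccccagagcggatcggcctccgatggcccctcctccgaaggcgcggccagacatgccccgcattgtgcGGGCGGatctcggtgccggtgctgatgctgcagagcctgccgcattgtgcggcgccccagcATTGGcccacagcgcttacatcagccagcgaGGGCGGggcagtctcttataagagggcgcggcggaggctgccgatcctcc
Tubb2b: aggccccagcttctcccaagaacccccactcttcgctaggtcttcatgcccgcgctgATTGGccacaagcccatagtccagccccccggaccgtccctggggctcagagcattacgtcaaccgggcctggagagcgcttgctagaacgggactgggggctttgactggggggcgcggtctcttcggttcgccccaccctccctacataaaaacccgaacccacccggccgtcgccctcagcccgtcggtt
Tuba1c: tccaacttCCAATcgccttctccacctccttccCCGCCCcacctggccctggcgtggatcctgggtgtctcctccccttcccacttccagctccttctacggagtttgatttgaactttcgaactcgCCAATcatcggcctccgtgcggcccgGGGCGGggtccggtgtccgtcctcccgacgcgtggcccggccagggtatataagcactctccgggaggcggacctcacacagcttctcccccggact

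Windows of this length were found for 41 of the 48 symbols, 44 windows in all. Map1lc3a, Map1lc3b2, Map4, Map6, Mapt, Dpysl2 and Stmn4 had none. A GC box was present in 25 of the 44 windows against 30.5% of all 33469 rat windows. The CCAAT box was in 17 (34.0% of all windows), among them 12 of the 19 windows of genes between the 2-fold limits, 3 of 12 of genes higher in mcPCs and 2 of 13 of genes higher in VSMCs. Of those 12, 2 were overlapping windows of Tubb1 that hold the same matches. The TATA box (TATAAA) was in 6 (12.9% of all), including those of Dcx and Map1b. The CArG box, the motif through which serum response factor reaches smooth muscle genes, was in 0 (1.5% of all). Median GC content was 64.0% in the windows of genes higher in mcPCs and 64.4% in those of genes higher in VSMCs, against 60.0% for the members between and 51.2% for all windows. These matches only describe the letters of each window.

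The cell type labels were first checked against markers. All 15 smooth muscle genes examined were higher in VSMCs, with a median log2 ratio of -7.81 and a summed level of 66676 TPM in VSMCs against 489.8 TPM in mcPCs. Of 12 mural cell genes, 8 were higher in mcPCs and 2 in VSMCs, and they summed to 735672 normalized counts in VSMCs and 1158350 in mcPCs, although to 11851 and 5691 TPM as deposited. Rgs5 led these with 6298 and 1703 TPM and a log2 ratio of -0.06 on normalized counts, and the pericyte genes Abcc9 and Kcnj8 were higher in mcPCs, with log2 ratios of 6.52 and 6.17. The mcPC samples also held RNA of blood cells, although the rats had been perfused with buffer before dissection. The 33 of 46 erythrocyte genes with a row took 55.0% of the mcPC TPM and 0.761% of the VSMC TPM, Hba-a1 first among them, and 26 of them were higher in mcPCs. Hba1, Hba2, Hbb-b1, Hbb-bs, Hbe1, Hbe2, Hbg1, Gype, Rhag, Trim58, Ermap and Gata1 were among those without a row. A gene has a row where each of the 6 samples held 1 read or more of it, and genes without one were not analysed here. The median gene of the table had a log2 ratio of -1.72 on TPM against 0.01 on normalized counts.

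Of the 49 members, 15 were at least 2-fold higher in mcPCs, 15 were at least 2-fold higher in VSMCs and 19 lay between. Of all 14607 rows, 21.6% were higher in mcPCs and 13.8% in VSMCs, so that the members' 30.6% in each direction was above the background, more so towards VSMCs. When the whole counting interval had to lie beyond 2-fold, the members again counted 15 and 15, against 18.7% and 11.9% of all rows. The median log2 ratio was -0.10 over the members and 0.01 over all rows. The members spread to both sides with little shift of their centre, and 6 of the 12 families had members beyond 2-fold in both directions.

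**Figure D1:**
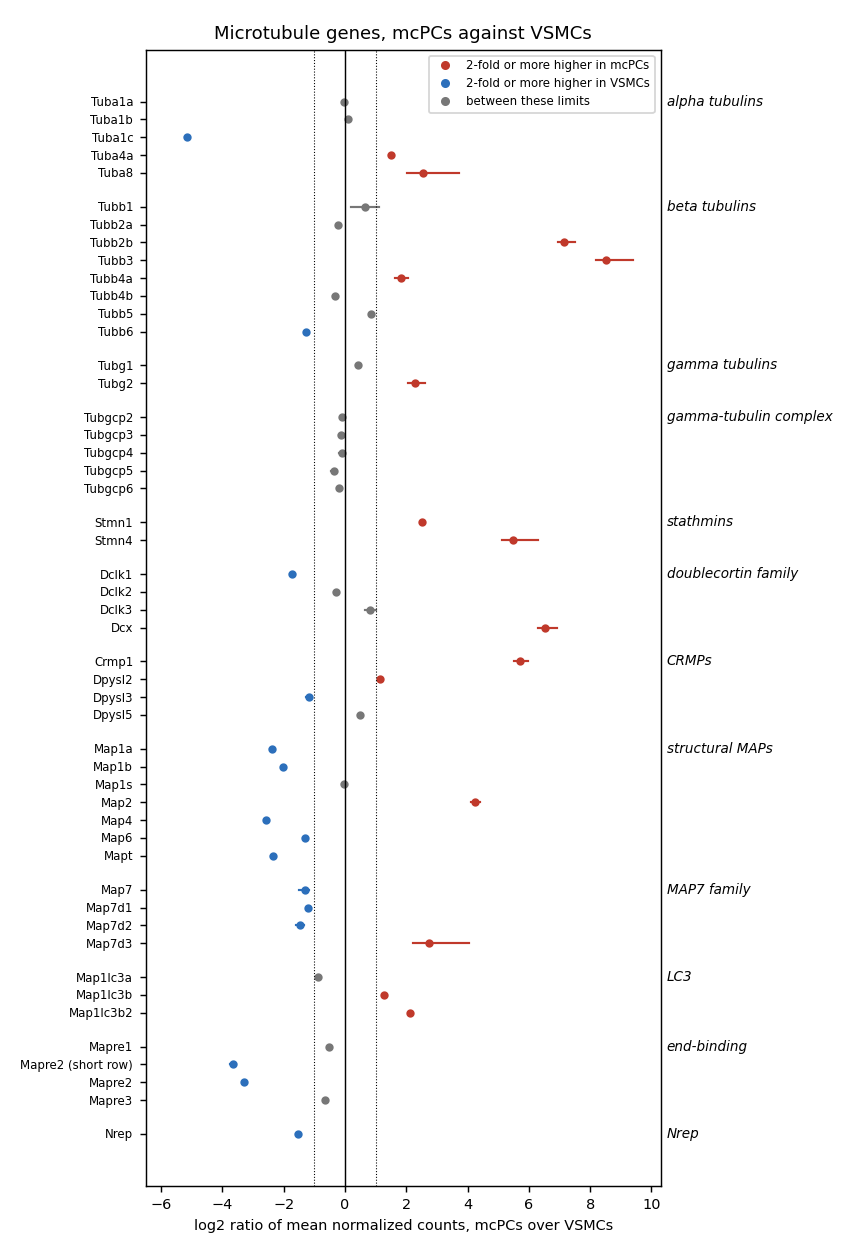
Log2 ratio of mean normalized counts in mcPCs over VSMCs (x axis) for each of the 49 rows, grouped by family (y axis), with 95% counting intervals as horizontal lines and 2-fold limits dotted. Tubb3 at 8.53 and Tubb2b at 7.16 lie farthest to the right and Tuba1c at -5.17 farthest to the left, while the 5 gamma-tubulin complex genes sit close to 0. Of the rows beyond the 2-fold limits, Tuba4a, Dpysl2 and Map1lc3b change sign on TPM as deposited, to below 0.

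Among the 5 alpha tubulins, Tuba1c was higher in VSMCs, and Tuba8 and Tuba4a were higher in mcPCs on normalized counts. On TPM as deposited neither Tuba8, at 0.65, nor Tuba4a, at -0.29, was 2-fold higher in mcPCs. Tuba1c was the most abundant alpha tubulin of VSMCs, at 1068 TPM, and was at 8.55 TPM in mcPCs. In normalized counts it went from 40997 in VSMCs to 1138 in mcPCs, 36.0-fold lower, with a log2 ratio of -5.17 (counting interval -5.23 to -5.11). Tuba1a and Tuba1b were nearly level between the cell types on that scale. Tuba1a had 21585 normalized counts in VSMCs and 21310 in mcPCs, and Tuba1b had 14474 and 15358. With Tuba1c left out, the alpha tubulins summed to 36702 normalized counts in VSMCs and 38518 in mcPCs.

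Expressed as shares of the alpha tubulin TPM, which do not depend on the scaling between cell types, Tuba1c held 54.2% in VSMCs and 3.07% in mcPCs. Tuba1a and Tuba1b together held 44.9% and 91.6%. Tuba4a, an isotype that carries no C-terminal tyrosine in its gene, held 0.903% and 5.24%, and its log2 ratio was 1.51 on normalized counts but -0.29 on TPM as deposited. Tuba8 was near the lower end of the data in both cell types, with 0.10 TPM from 16 reads in VSMCs and 0.213 TPM from 62 reads in mcPCs. Its log2 ratio was 2.55, with a wide interval of 2.01 to 3.72, and 1.45 with a pseudocount of 10. Tuba1a, Tuba1b and Tuba1c are close in coding sequence, so that their shares depend on how shared reads were divided between them.

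**Figure D2:**
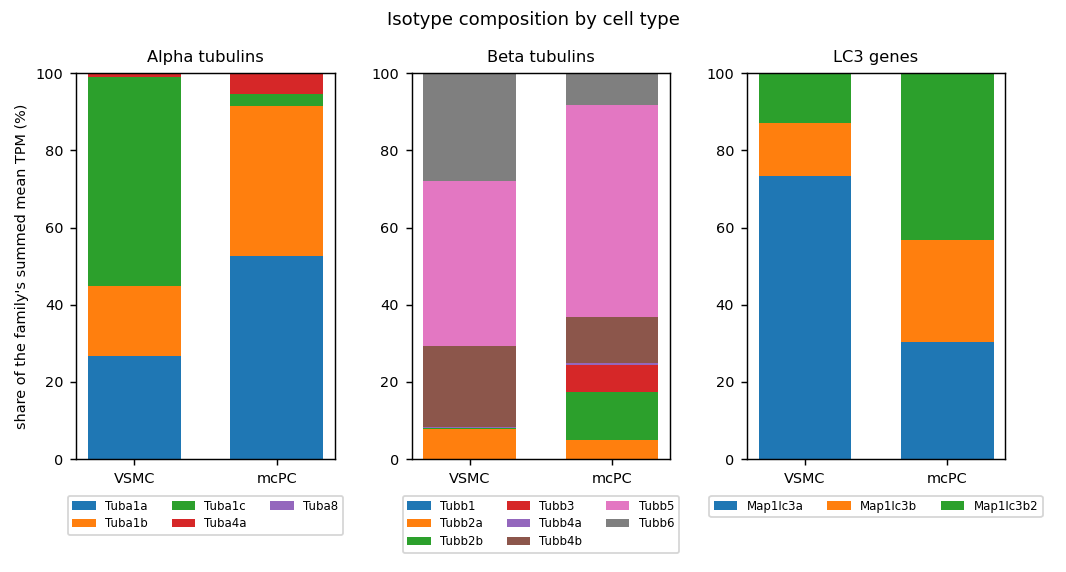
Share of each isotype in the summed mean TPM of its family (y axis, percent), in VSMCs and mcPCs, for alpha tubulins, beta tubulins and LC3 genes. Tuba1c fills 54.2% of the VSMC alpha tubulin bar and 3.07% of the mcPC bar, and Tubb2b and Tubb3 together fill 0.142% and 19.5% of the beta tubulin bars.

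Beta tubulins showed the highest ratios of all members. Tubb3, the class of beta tubulin used as a marker of neurons, was at 0.131 TPM in VSMCs against 15.7 TPM in mcPCs. It rested on 24 reads over the 3 VSMC samples and 5414 over the 3 mcPC samples, or 5.91 and 2552 normalized counts. Its log2 ratio was 8.53 (counting interval 8.18 to 9.40), and 7.33 with a pseudocount of 10. Tubb2b, abundant in the developing cortex, went from 0.652 to 27.2 TPM and from 27.1 to 4026 normalized counts, 143-fold higher in mcPCs with a log2 ratio of 7.16. Its near copy Tubb2a, at 42.8 and 10.6 TPM, had a log2 ratio of -0.22, so that within this pair the gene with more transcripts was Tubb2a in VSMCs and Tubb2b in mcPCs. How reads common to both were divided could shift these values.

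The beta tubulins common to most cells differed less. Tubb5 was the most abundant in both cell types, at 234.5 and 121 TPM in VSMCs and mcPCs, and its log2 ratio of 0.86 on normalized counts became -0.95 on TPM as deposited. Tubb4b, at 117 and 26.0 TPM, had a log2 ratio of -0.34. Tubb6, an isotype common in muscle and fibroblasts, was higher in VSMCs, with 154.6 TPM against 17.8 TPM and a log2 ratio of -1.27 (-1.31 to -1.23). Tubb4a, a brain isotype of oligodendrocytes and neurons, was low in both, with 1.15 and 1.18 TPM and a log2 ratio of 1.83. Tubb1, the beta tubulin of platelets, had under 120 reads in both cell types and a log2 ratio of 0.64 (0.19 to 1.12).

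As shares of the beta tubulin TPM, Tubb5 held 42.6% in VSMCs and 55.1% in mcPCs, Tubb6 28.1% and 8.11%, and Tubb4b 21.2% and 11.8%. Tubb2b and Tubb3 together held 0.142% in VSMCs and 19.5% in mcPCs. Summed alpha tubulin TPM was 3.58 times the beta tubulin TPM in VSMCs and 1.26 times in mcPCs.

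In the nucleating machinery, the ring proteins and the main gamma tubulin lay between the 2-fold limits on normalized counts, and the minor one did not. The 5 gamma-tubulin complex genes, Tubgcp2 to Tubgcp6, which build the ring that starts a microtubule, had log2 ratios between -0.38 and -0.08 on normalized counts. On TPM as deposited they lay between -2.14 and -1.86, beside the -1.72 of the median gene. Tubgcp2 was the highest of them, at 23.8 and 6.44 TPM. Tubg1, the gamma tubulin of most cells, had 1626 normalized counts in VSMCs and 2184 in mcPCs. Its log2 ratio of 0.42 turned to -1.38 on TPM as deposited and to -0.15 on counts scaled to the same total. Tubg2, the gamma tubulin better known from brain, was at 0.870 and 1.25 TPM, with a log2 ratio of 2.29 (2.04 to 2.60) and a share of gamma tubulin TPM of 2.20% in VSMCs and 7.81% in mcPCs.

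Both stathmins with a row were higher in mcPCs. Stmn1, a tubulin-sequestering protein that is high in proliferating cells and in young neurons, was at 39.4 TPM in VSMCs against 64.6 TPM in mcPCs. On TPM as deposited its log2 ratio was 0.71, short of 2-fold. Its normalized counts were 873 and 5001, and its log2 ratio was 2.52 (2.46 to 2.57). Stmn4, a stathmin of neurons, went from 0.185 to 2.63 TPM, from 27 reads to 671. Its log2 ratio was 5.47 (5.13 to 6.30), and 4.33 with a pseudocount of 10. Stmn1 made up 99.5% of stathmin TPM in VSMCs and 96.1% in mcPCs.

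Doublecortin and its kinases went different ways. Dcx, which bundles microtubules in migrating neurons, was at 0.0810 TPM in VSMCs against 2.15 TPM in mcPCs. In normalized counts it had 19.9 and 1935, a log2 ratio of 6.54 (6.30 to 6.92). Dclk1, a kinase with the same microtubule-binding domains, was higher in VSMCs instead, with 19.4 TPM against 1.72 TPM and a log2 ratio of -1.72. Dclk2, the most abundant of the family at 63.9 and 15.7 TPM, and Dclk3 lay between the limits with log2 ratios of -0.30 and 0.82. Dcx therefore held 0.0957% of the family TPM in VSMCs and 10.7% in mcPCs.

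The CRMPs, which carry tubulin dimers to growing ends and were described in axon guidance, were divided as well. Crmp1 went from 0.491 TPM in VSMCs to 7.31 TPM in mcPCs, a log2 ratio of 5.70 (5.51 to 5.97). Dpysl2, also known as CRMP2 and the most abundant of the family in both cell types, was at 37.8 and 23.7 TPM, with a log2 ratio of 1.14 on normalized counts that became -0.67 on TPM as deposited. Dpysl3 was higher in VSMCs, at 33.0 TPM against 4.28 TPM, with a log2 ratio of -1.18 (-1.26 to -1.11). Dpysl5 was between the limits, at 0.49.

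The structural MAPs were mostly higher in VSMCs, 5 of 7 genes, and Map2 was the exception in the other direction. Map4, the MAP of most non-neuronal cells, was the most abundant at 269 TPM in VSMCs against 12.9 TPM in mcPCs, with 42059.9 and 7016 normalized counts and a log2 ratio of -2.58. Mapt, which encodes tau, was at 69.8 TPM in VSMCs against 3.82 TPM in mcPCs, with a log2 ratio of -2.35 (-2.40 to -2.30). Map1b and Map1a, large MAPs best known from axons and dendrites, had log2 ratios of -2.04 and -2.39, and Map6, which makes microtubules stable to cold, had -1.32.

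These MAPs, although best studied in neurons, were thus well expressed in VSMCs. Map1b was at 51.4 TPM, Map6 at 36.2 TPM and Map1a at 20.0 TPM there, against 3.49, 4.14 and 1.09 TPM in mcPCs. Map2, the dendritic MAP, was instead at 1.09 TPM in VSMCs against 5.29 TPM in mcPCs, with a log2 ratio of 4.25 (4.11 to 4.42). Map1s was nearly level, at -0.03. Map4 held 58.6% of the summed TPM of the 7 structural MAPs in VSMCs and 38.0% in mcPCs, and Map2 0.236% and 15.6%.

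**Figure D3:**
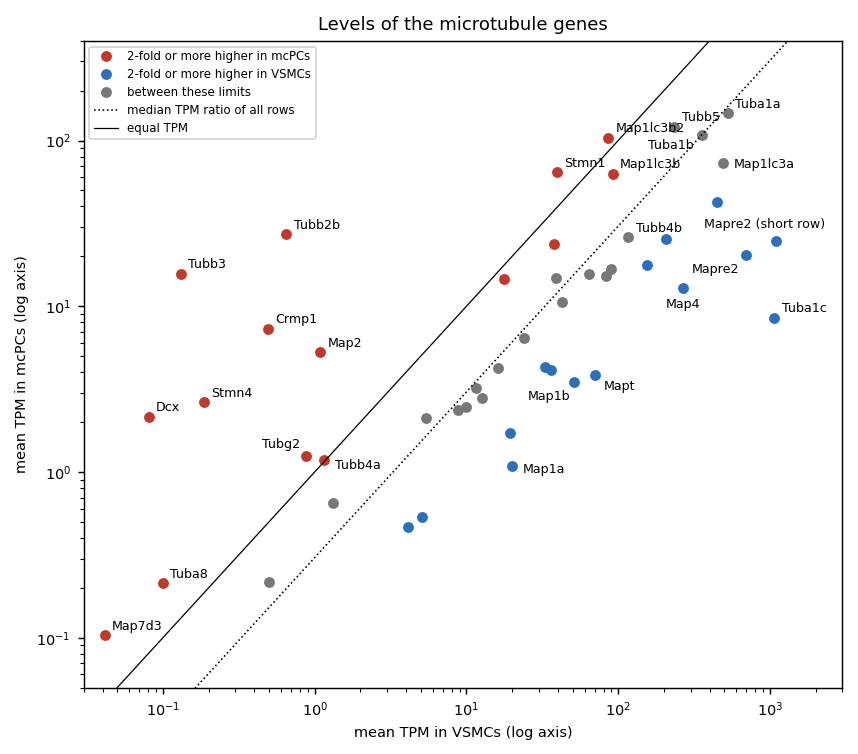
Mean TPM in VSMCs (x axis, log scale) against mean TPM in mcPCs (y axis, log scale) for the 49 rows, coloured by their call on normalized counts. The dotted line is the median TPM ratio of all 14607 rows and the solid line is equal TPM. Tubb3, Tubb2b, Dcx, Crmp1, Stmn4 and Map2 lie at the left, well above both lines, while Tuba1c and Mapre2 stand far below and are among the most abundant members of VSMCs.

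The MAP7 family recruits the motor kinesin-1 to microtubules. Map7d1 was its most abundant gene, at 206 and 25.6 TPM, with a log2 ratio of -1.20 and 95.7% and 95.9% of the family TPM. Map7 and Map7d2 were also higher in VSMCs, with log2 ratios of -1.32 and -1.46, at 4.11 and 5.11 TPM in VSMCs and 0.466 and 0.535 TPM in mcPCs. Map7d3 was the least abundant of all members in both cell types, with 14 reads in VSMCs and 62 in mcPCs. Its log2 ratio was 2.74 (2.23 to 4.03), and 1.48 with a pseudocount of 10.

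All 4 end-binding rows had negative log2 ratios on each of the 5 scales tried, and Mapre2 had the lowest. Its full-length row had 694 TPM in VSMCs against 20.3 TPM in mcPCs, or 39379 and 4048 normalized counts, a log2 ratio of -3.28 (-3.31 to -3.25). A second row with the same symbol had a mean effective length of only 166 bases in VSMCs, which makes its 1093 TPM uncertain as a level, and a log2 ratio of -3.67. Mapre1 and Mapre3, the end-binding proteins of most cells and of neurons and muscle, had log2 ratios of -0.53 and -0.64, at 89.5 and 83.4 TPM in VSMCs. Nrep, a small protein first described in regenerating neurons, was also higher in VSMCs, with 446 TPM against 42.8 TPM and a log2 ratio of -1.54 (-1.61 to -1.47). Nrep too has a short mean effective length, 228 bases.

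The LC3 genes, light chains of the large MAPs that also coat autophagosomes, shifted between copies. Map1lc3a was at 489 TPM in VSMCs against 73.2 TPM in mcPCs, with a log2 ratio of -0.90, short of 2-fold. Map1lc3b2 was at 85.7 and 103.8 TPM, with a log2 ratio of 2.12, and Map1lc3b at 92.2 and 63.2 TPM, with a log2 ratio of 1.28 that became -0.54 on TPM as deposited. Map1lc3a held 73.3% of LC3 TPM in VSMCs and 30.5% in mcPCs, while Map1lc3b2 held 12.9% and 43.2%. Map1lc3b and Map1lc3b2 are near copies, so that the division of reads between them is uncertain.

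The members higher in either direction differed in the size of their ratios. Of the 15 higher in mcPCs, 6 were at least 10-fold higher there, namely Tubb3, Tubb2b, Dcx, Crmp1, Stmn4 and Map2. Among the same 15, 7 were under 0.8 TPM in VSMCs, where the call itself favours low levels. They were Tubb3, Tubb2b, Dcx, Crmp1, Stmn4, Tuba8 and Map7d3. The authors used 0.8 TPM in VSMCs as an empirical threshold and left genes below it, these 7 included, out of their final dataset. They set it after finding endothelial transcripts more abundant in mcPCs than in VSMCs. Map7 and Map7d2, both higher in VSMCs, were likewise under 0.8 TPM in mcPCs. Of the 15 higher in VSMCs, 2 were at least 10-fold higher there, Tuba1c and the short Mapre2 row, and their median log2 ratio was -1.72 against 2.55 for those higher in mcPCs.

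Mean effective lengths, which depend on which annotated transcripts of a gene carried the reads, differed by at least 5% between the cell types in 4 of the 49 members, or 8.16%, close to the 8.06% of all rows. They were 3788 bases in VSMCs and 4467 in mcPCs for Dclk1, 3477 and 3967 for Mapt, 1390 and 1263 for Dclk2, and 3272 and 2621 for Map2. The Tubb3, Tuba1c and Dcx rows had the same length in both. The log2 ratio of Map2 was 3.81 and that of Dclk1 -1.43 on counts scaled without erythrocyte genes, which do not take length into account, against 4.25 and -1.72 on normalized counts.

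**Figure D4:**
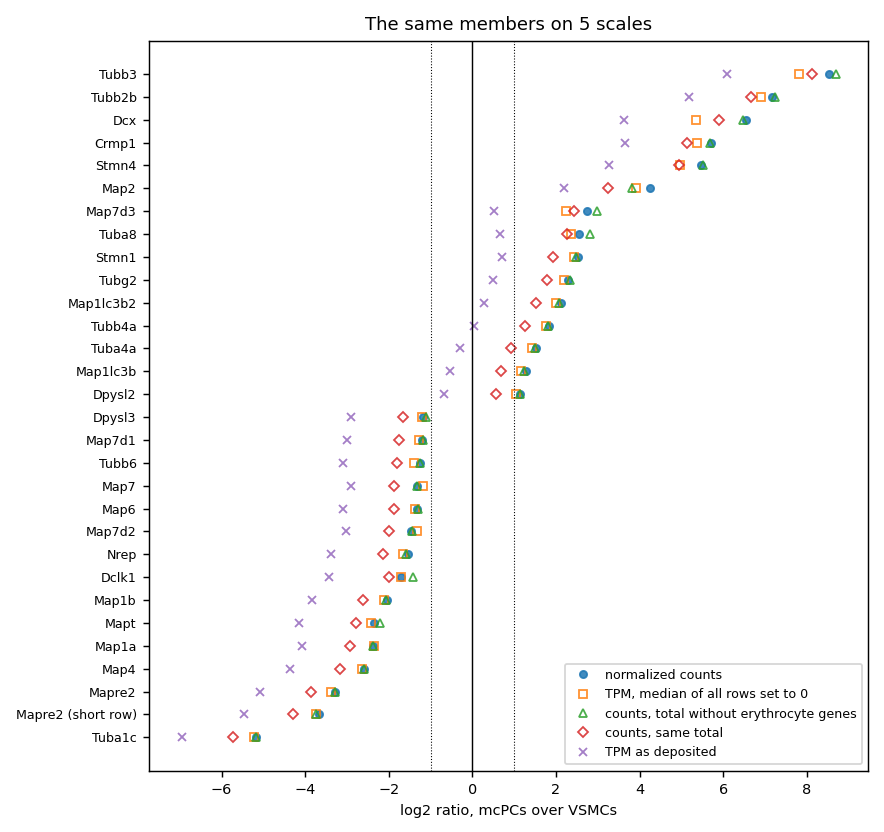
Log2 ratio in mcPCs over VSMCs (x axis) of the 30 members beyond 2-fold (y axis) on 5 scales, shown by different symbols, with 2-fold limits dotted. Tubb3, Tubb2b, Dcx, Crmp1, Stmn4 and Map2 stay beyond 2-fold on all 5, all 15 members higher in VSMCs do too, and Tuba4a, Map1lc3b and Dpysl2 fall below 0 on TPM as deposited.

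Most markers of other cell types that had a row were also higher in mcPCs, a call that 21.6% of all rows had. Of 25 genes of immature neurons, 10 had a row and all 10 were higher in mcPCs, with a median log2 ratio of 4.57. Their summed level was 9.40 TPM in VSMCs against 43.4 TPM in mcPCs, led by Nnat with 5.19 and 13.3 TPM, and Dlx1, a transcription factor of interneuron precursors, had the highest ratio at 8.76. Sox4, Elavl2, Elavl4, Gap43, Igfbpl1, Dlx2, Dlx6, Dlx6os1, Sp8, Sp9, Nsg2, Tbr1, Neurod1, Neurod2 and Neurod6 had no row. The log2 ratios of that list ran from 2.26 to 8.76.

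Of 20 genes of mature neurons, 12 had a row, 9 were higher in mcPCs and Nefm was higher in VSMCs, at -3.83. The median was 3.94 and the summed level 75.8 TPM in VSMCs against 125.5 TPM in mcPCs. Single genes made up most of each sum. Eno2 led in VSMCs, with 44.2 TPM against 8.83 TPM in mcPCs, and Thy1 led in mcPCs, with 104 TPM against 16.6 TPM in VSMCs. Syt1, Rbfox3, Nefh, Slc17a7, Sst, Npy and Grin1 were among those without a row. Of 20 cell cycle genes, 19 had a row and 14 were higher in mcPCs, with a median of 2.59 and Mki67 at 3.76. They summed to 11303 normalized counts in VSMCs and 21333 in mcPCs, although to 317 and 108 TPM as deposited, led by Pcna with 258 and 37.5 TPM, and Ccnb2 had no row. The part that RNA of neurons or of cycling cells had in the ratios of Tubb3, Tubb2b, Dcx, Stmn1 and the other members higher in mcPCs was not tested.

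Most genes of other lists were also higher in mcPCs on normalized counts. Leukocyte genes with a row, 6 of 14, were all higher there, led by Lyz2, with 1.84 and 179.5 TPM in sum, while Cd3d, Cd3e, Cd3g, Cd79a, Cd79b, Ms4a1, S100a8 and Nkg7 had no row. Endothelial genes counted 15 of 18 and summed to 45939 normalized counts in VSMCs and 138309 in mcPCs, although to 1064 and 863 TPM as deposited. Most of these sums came from Esam, Itm2a, Bsg and Eng, at 487, 145, 374 and 42.2 TPM in VSMCs and 184, 375, 166 and 55.1 TPM in mcPCs. Cldn5, Tie1 and Tek were at 0.643, 0.546 and 0.140 TPM in VSMCs against 15.4, 2.76 and 1.39 TPM in mcPCs. Pecam1 and Ly6c1 had no row. Astrocyte genes counted 5 of 6 and summed to 14.6 and 22.5 TPM, led by Aldoc in VSMCs and Slc1a3 in mcPCs, without rows for Slc1a2, Aldh1l1, Mlc1, Slc6a11, Gjb6 and Ntsr2. Oligodendrocyte genes counted 7 of 8 and summed to 20.4 and 21.8 TPM, led by Cnp, without rows for Mag, Olig1, Sox10, Opalin and Gpr17.

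Microglial genes counted 5 of 6, Csf1r at 0.111 and 3.94 TPM among them, without rows for Aif1, P2ry12, P2ry13, C1qc, Itgam, Trem2 and Tyrobp. Fibroblast genes counted 7 of 9 and summed to 60292 normalized counts in VSMCs and 77370.4 in mcPCs, although to 461 and 266 TPM as deposited, led by Col3a1 in VSMCs and Slc6a13 in mcPCs, without a row for Col1a2. Choroid plexus and ependymal genes counted 3 of 5 higher in mcPCs and 1 in VSMCs and summed to 374 and 399 TPM, nearly all Rarres2, without rows for Ttr, Foxj1, Tmem212, Kl and Hydin. Platelet genes, given beside Tubb1, counted 3 of 5 higher in mcPCs and 1, Nrgn, in VSMCs. They summed to 366 and 12.1 TPM, but Nrgn alone had 360 and 7.38 TPM, so that these sums mainly reflect that gene. Pf4, Ppbp, Gp9, Gp1bb, Gp5, Gp6, Treml1 and Clec1b were among those without a row. The part of these cells in the members' values was not tested.

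**Figure D5:**
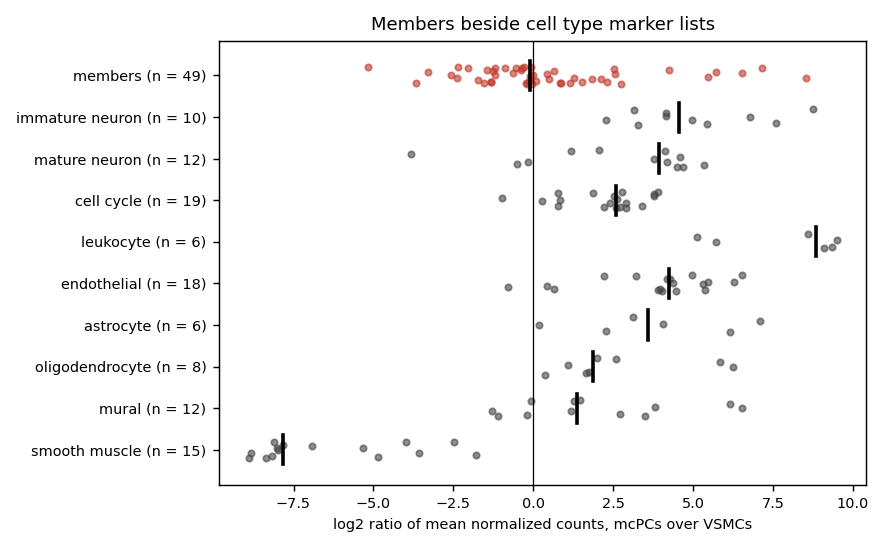
Log2 ratio of mean normalized counts in mcPCs over VSMCs (x axis) for the 49 members (red) and for the genes of 9 marker lists (grey), 1 point per gene and a black bar at each median. The members spread from -5.17 to 8.53 around a median of -0.10, while the immature neuron list has its median at 4.57 and the smooth muscle list at -7.81.

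Further genes that act on microtubules were read from 5 lists. For comparison with their counts, 21.6% of all rows were higher in mcPCs and 13.8% in VSMCs. Of 54 kinesin, dynein and dynactin genes, 52 had a row, 16 were higher in mcPCs and 11 in VSMCs. The highest ratios were those of the neuronal kinesins Kif21b (0.131 and 3.65 TPM, log2 ratio 6.51) and Kif5c (0.309 and 2.06 TPM, 4.44), and the lowest those of the vesicle motor Kif1c (213.8 and 7.87 TPM, -2.95) and of the dynein regulator Ndel1 (145.6 and 10.7 TPM, -1.96). Of 44 genes for plus and minus ends and severing, 41 had a row and 11 were higher in each cell type. Nav3 and Slain1, both plus-end proteins, had log2 ratios of 4.99 and 4.81, and the cytoskeletal linker Dst and Nckap5 had -2.43 and -2.41.

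Genes that modify tubulin had log2 ratios from -4.50 to 2.90 and those that fold it from -1.26 to 0.63. Of 25 modification genes, 21 had a row, 5 were higher in mcPCs and 4 in VSMCs, beside the 21.6% and 13.8% of all rows. Ttll7, which adds glutamates to beta tubulin, was at 273 TPM in VSMCs against 3.45 TPM in mcPCs, a log2 ratio of -4.50, and Ttll3, which adds glycine, was at 38.5 and 1.82 TPM, a log2 ratio of -2.60. Vash1, which removes the C-terminal tyrosine of alpha tubulin, and the deacetylase Sirt2 had log2 ratios of 2.90 and 2.07. Of 22 folding genes, 21 had a row, 0 were higher in mcPCs and 2 in VSMCs, Tbccd1 at -1.26 and the chaperonin subunit Tcp1 at -1.01. Of 18 partners of gamma-tubulin, 17 had a row and 0 passed 2-fold in either direction, with log2 ratios from -0.70 to 0.73, beside the -0.38 to -0.08 of the gamma-tubulin complex genes.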

How the data were processed

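The members and lists were chosen with earlier results of these data known. Reads had been cleaned in Eoulsan and quantified by the authors against Ensembl transcripts of Rnor_6.0 with Salmon 0.8.0, then collapsed to genes in tximport, and a gene was listed where every sample had 1 read or more. The deposited values are means per cell type: TPM, Salmon's estimated counts per sequencing run, the authors' DESeq2-normalized counts (a signal per gene) and the authors' effective lengths. The authors' log2 fold changes, standard errors and p-values of mcPCs against VSMCs were not used. Estimated counts were multiplied by 12 runs (3 samples of 4 runs) to give reads, since 69.8% of VSMC and 71.5% of mcPC means were then within 0.01 of a whole read.

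Ratios were taken with a pseudocount of 1 normalized count. Counting intervals at 95% are exact (Clopper-Pearson) binomial intervals of the mcPC reads among the reads of both cell types, moved to the normalized scale. Every member was accounted for, and full values were given for those beyond 2-fold and for the most abundant of each family. From the pathway lists, the 2 genes with the largest ratio in each direction among those beyond 2-fold with at least 120 reads were named. Marker lists covered neurons, cell cycle, glia, leukocytes, platelets, erythrocytes, endothelium, fibroblasts, choroid plexus and ependyma, mural cells and smooth muscle, and a few of their genes are not reported here. The computation was tested on simulated data. The tools were scipy 1.17.1, pandas 2.3.3, numpy 2.4.6 and matplotlib 3.10.9 under Python 3.11.15.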

Additional observations from a re-analysis of the deposited data

How the results depend on the processing

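Only means per cell type were used here, so the spread between the 3 isolations was not estimated, the standard errors given by the authors were left unused, and the intervals cover counting alone. Letters shared by the sample titles were taken to pair the cell types by isolation. No paired analysis was possible from the columns used, which hold means of a cell type. Leaving out a sample in turn and the edgeR and DESeq2 fits were not run for the same reason. Genes with few reads in a cell type (Tuba8, Map7d3 and Tubb1 had under 120 in both) have uncertain ratios.

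On the ratio of mean TPM as deposited, taken with a pseudocount of 0.1, 6 members were 2-fold or more higher in mcPCs and 31 in VSMCs, and the median log2 ratio of the members was -1.87 against -1.72 for all rows. Of the members beyond 2-fold, Tuba4a, Dpysl2 and Map1lc3b changed direction there, to -0.29, -0.67 and -0.54. Of those between the limits, Tubb5, Tubg1, Dclk3, Dpysl5, Tubb1 and Tuba1b did so too. Of the 15 members higher in mcPCs 6 kept their call on that scale, and all 15 higher in VSMCs did. With the median of all rows set to 0, or on counts scaled without erythrocyte genes, all 15 and 15 kept their calls. With the mean counts of each cell type scaled to an equal total, 12 and 15 did, and the members had a median of -0.66 against -0.55 for all rows. Among members with at least 0.8 TPM in VSMCs, the threshold of the authors, 8 were higher in mcPCs and the median was -0.30. That filter removes members low in VSMCs. A minimum of 120 reads kept 13 and 15 calls, without Tuba8 and Map7d3. Pseudocounts of 0 and 10 kept 15 and 15, but 8 ratios moved at 10. Tubb3 went from 8.53 to 7.33, Stmn4 from 5.47 to 4.33, Map7d3 from 2.74 to 1.48 and Tuba8 from 2.55 to 1.45, each below its counting interval and each resting on 14 to 27 VSMC reads. As a share of mean counts in place of TPM, Tuba1c held 52.9% of alpha tubulins in VSMCs and 2.92% in mcPCs.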
